A study of Mus musculus with 6 samples.

Results

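Natural killer (NK) cell receptor and cytotoxic granule genes were examined in lung group 2 innate lymphoid cells (ILC2s) that lacked SIRPα. The 7 genes, Klrd1, Klre1, Klrk1, Klrg1, Gzma, Gzmb and Prf1, were chosen by name among the 17831 genes of the deposited table, and all 7 are present in it. They were selected with earlier results of these data known, so their values describe this contrast and are not independent evidence of its direction. RNAseq had been performed on sorted ILC2s, 3 libraries from WT mice (labelled CB57BL/6) and 3 from SIRPα KO mice (SIRPalphatm1Ynliu/J, with no Cre or other restriction to a cell type named). Mice aged 6 to 8 weeks in both groups had received 0.5 μg IL-33 intranasally for 3 days. CD45+ lineage- ST2+ CD127+ cells were sorted on day 4, and cells of both groups were then kept with the recombinant cytokines IL-2 and IL-7, for 18 h by one statement of the study and 24 h by another. Each library was made from 10 pg of RNA.

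Klrd1 (CD94), Klre1 and Klrk1 (NKG2D) are lectin-like receptors encoded in the NK gene complex, a cluster of receptor genes known chiefly for the recognition of MHC class I and stress-induced ligands by NK cells. CD94 pairs with NKG2 proteins, and NKG2D signals through the adaptor DAP10. KLRG1 is an inhibitory receptor that binds cadherins and marks activated ILC2s in the lung. Granzyme A and granzyme B are serine proteases stored in cytotoxic granules, and perforin, the product of Prf1, forms the pore through which they reach the target cell.

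In mm10, Klre1 (chr6:129577905-129585827, plus strand), Klrd1 (chr6:129591782-129598775, plus strand) and Klrk1 (chr6:129610323-129623864, minus strand) lie next to each other within 46.0 kb. Klrg1 (chr6:122270596-122282882, minus strand) is on the same chromosome but 7295 kb away from Klre1, outside the NK gene complex. Gzma lies at chr13:113093825-113100981 and Gzmb at chr14:56258838-56262260, both on the minus strand, and Prf1 at chr10:61297833-61304680 on the plus strand. No exon of the 7 overlaps another gene's exon, and none has a near-identical copy among the annotated transcripts (95% identity or more over 50% or more of its length).

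The 5 promoters are shown because 1 short motif recurs in them. RefSeq starts (GRCm38.p6) were matched for 5 of the 7 genes, and Klrd1 and Klrg1 had none. Each sequence is the 250 bases before the start, 5′ to 3′ on the strand of the gene, and capitals mark the RUNX core TGTGGT or its reverse complement ACCACA. The windows are chr6:129577963-129578212 (plus strand) for the first of the Klre1 starts in RefSeq, which lies inside the GENCODE gene given above, chr6:129623865-129624114 (minus strand) for Klrk1, chr10:61297586-61297835 (plus strand) for Prf1, chr13:113100982-113101231 (minus strand) for Gzma and chr14:56262335-56262584 (minus strand) for Gzmb.
Klre1: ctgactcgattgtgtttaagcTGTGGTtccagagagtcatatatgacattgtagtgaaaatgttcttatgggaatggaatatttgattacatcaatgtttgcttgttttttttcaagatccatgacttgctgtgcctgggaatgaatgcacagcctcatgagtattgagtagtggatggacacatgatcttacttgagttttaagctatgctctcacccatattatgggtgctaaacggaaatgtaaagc
Klrk1: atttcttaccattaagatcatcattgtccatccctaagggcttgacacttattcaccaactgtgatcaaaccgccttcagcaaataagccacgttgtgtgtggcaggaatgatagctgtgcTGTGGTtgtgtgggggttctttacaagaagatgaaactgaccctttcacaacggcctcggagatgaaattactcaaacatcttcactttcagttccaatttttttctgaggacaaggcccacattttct
Prf1: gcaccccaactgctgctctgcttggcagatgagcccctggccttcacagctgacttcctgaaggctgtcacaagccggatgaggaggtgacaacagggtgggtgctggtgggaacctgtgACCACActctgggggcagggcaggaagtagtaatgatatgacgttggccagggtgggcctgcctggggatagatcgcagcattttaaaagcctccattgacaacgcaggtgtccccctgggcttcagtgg
Gzma: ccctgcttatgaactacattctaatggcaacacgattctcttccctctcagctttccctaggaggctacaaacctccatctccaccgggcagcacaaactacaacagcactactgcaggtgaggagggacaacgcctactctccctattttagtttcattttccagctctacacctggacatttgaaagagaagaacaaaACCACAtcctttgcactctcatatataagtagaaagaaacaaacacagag
Gzmb: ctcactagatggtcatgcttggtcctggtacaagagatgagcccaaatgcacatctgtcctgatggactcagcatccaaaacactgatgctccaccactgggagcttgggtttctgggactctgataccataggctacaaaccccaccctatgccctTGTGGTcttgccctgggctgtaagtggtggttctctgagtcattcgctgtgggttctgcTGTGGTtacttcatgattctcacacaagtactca
The core was found in each of these 5 windows, and at another position in that of Gzmb. The other annotated start of Klre1 had none, so that 5 of 6 windows held it, against 14% of all 32851 promoter windows of the same length. The Klre1 windows overlap each other. The RUNX core was singled out after the motifs named here had been searched, and enrichment was not tested. The core began 229 bases before the start of Klre1, 129 before Klrk1, 130 before Prf1, 50 before Gzma, and 93 and 34 before Gzmb. For Prf1 and Gzmb the bases just after the RefSeq start were not found in a GENCODE transcript of the gene. The Gzmb start (chr14:56262334) lies upstream of the GENCODE gene given above, so its distances depend on the annotation. Searches on both strands for the T-box core TCACACC (in 3.33% of all windows), the GATA motif AGATAA (9.99%) and the STAT motif TTCNNNGAA (7.02%) found none in the 6 windows, and no motif overlapped another. These matches are letters in a window and no measurement of binding.

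Depth ranged from 13980499 to 19051507 reads per library. Levels are CPM, the reads of a gene scaled to a common library size with TMM factors, and fold changes are KO over WT from edgeR's quasi-likelihood test with Benjamini-Hochberg adjustment over 13623 genes. Sirpa, the targeted gene, had 149, 96 and 73 reads in the WT and 48, 85 and 28 in the SIRPα KO libraries (6.74 ± 1.87 against 3.09 ± 1.36 CPM, SD, n = 3 per group). Its log2 fold change was -1.12 (SE 0.42, adjusted p = 0.116), and reads of it remained in every KO library. Of 14 ILC2 markers 13 were in the table, with a summed level of 15063 to 16203 CPM in WT and 20610 to 21118 CPM in KO, most of it from Il5 (means of 9192 and 12951 CPM). Il5 and Il2ra rose past the threshold, whereas Id2 and Thy1 fell, Thy1 from 16.1 to 3.86 CPM (log2 fold change -2.06, adjusted p = 0.0139). In each group a pair of libraries, WT1 with WT2 and KO2 with KO3, carries library codes that differ only by a suffix and may be repeat libraries of 1 sample. The n here counts libraries, and the p-values measure the spread between these libraries, which may be technical.

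Levels of the 7 genes differed widely. Per kilobase of the longest transcript, Klrg1 stood highest in WT at 65.6 ± 9.39 CPM per kb (SD, n = 3 libraries), followed by Gzmb (10.1 ± 6.81), Gzma (7.58 ± 2.06), Klrk1 (2.23 ± 1.14), Klrd1 (1.93 ± 0.377), Prf1 (1.16 ± 1.10) and Klre1 (0.549 ± 0.0618). In this order every library of Klrg1 lay above every library of Gzmb, and every library of Gzma above every library of Klrk1, whereas the other neighbours overlapped. In SIRPα KO the first 4 ranks were unchanged and separate from each other, with Klrg1 at 50.4 ± 4.51, Gzmb at 3.41 ± 0.416, Gzma at 2.02 ± 1.02 and Klrk1 at 0.218 ± 0.219 CPM per kb. Klrg1 thus contributed 66.4% to 77.8% of the reads of the 7 genes in the WT libraries and 89.1% to 90.3% in the KO libraries. The other 6 genes together summed to 24.7, 26.7 and 54.6 CPM in WT and to 7.61, 7.35 and 9.49 CPM in KO, without overlap.

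**Figure D1:**
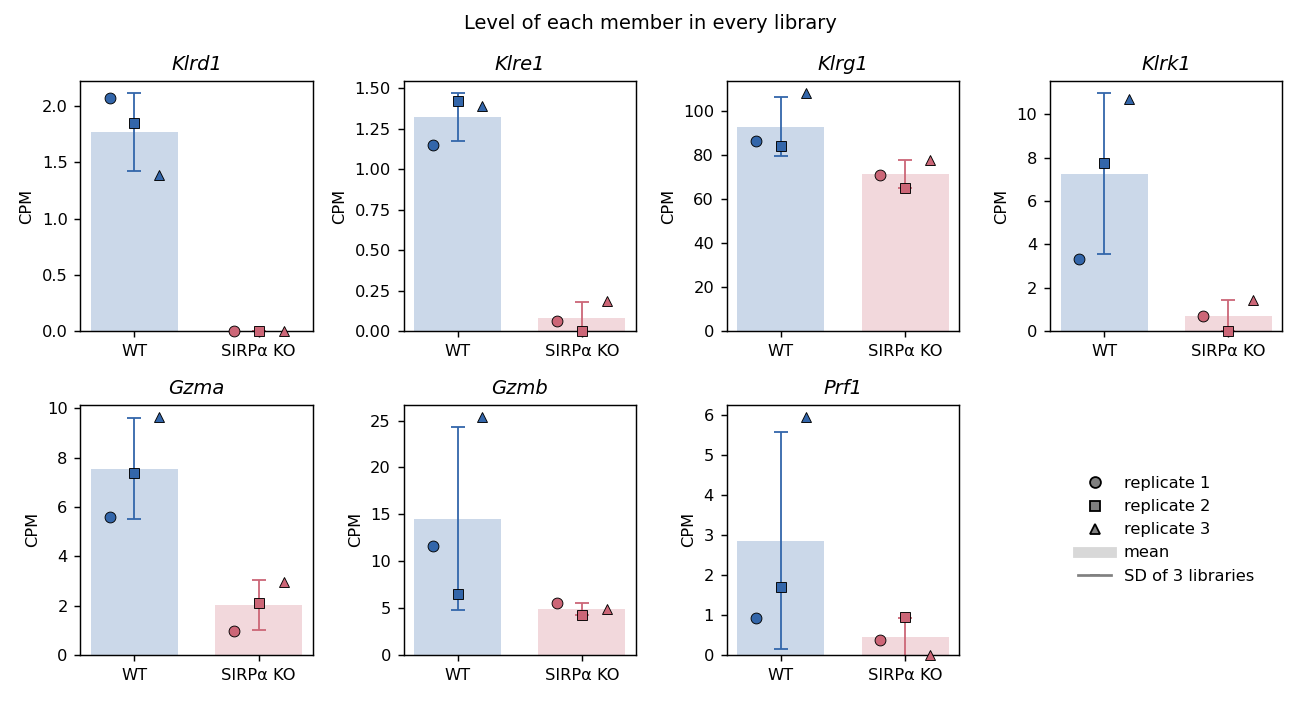
CPM (y axis, linear, a separate scale for each panel) of the 7 genes in the 3 WT and 3 SIRPα KO libraries. Points are libraries, bars are means and whiskers are SD, cut at 0. Klrd1 has no read in any KO library, Klrg1 lies between 65.1 and 108 CPM throughout, and WT3 is the highest library of Klrk1, Gzma, Gzmb and Prf1.

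All 7 genes had a lower mean in SIRPα KO, and 3 of them, Klrd1, Klre1 and Gzma, fell past an adjusted p of 0.05. Over all genes tested 11.7% passed this threshold in either direction and 5.81% passed it downwards. In 6 of the 7 every KO library was below every WT library, a pattern held by 21.2% of all genes tested. Prf1 was the exception. The median log2 fold change of the 7 was -2.65, the value of Prf1, beside -0.03 over all genes tested. Setting Klrd1 at the bound given below could not move this median, because Klrd1 stayed lower than Prf1. Of the 7, 5 had an average level under a log2 CPM of 3, and the 4477 tested genes of that level had a median of -0.25, with 85 lower and 70 higher past the threshold.

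Among the receptors of the NK gene complex, Klrd1 had 36, 26 and 21 reads in the WT libraries and 0, 0 and 0 in the KO libraries. Reads were present in each WT library and in no KO library. Its WT level was 1.77 ± 0.347 CPM (SD, n = 3), at least 9.92-fold higher than a floor of 3 reads in each KO library, a ratio that was not tested. The edgeR test on the reads themselves gave a log2 fold change of -7.85 (adjusted p = 0.0154). The size of that change depends on the prior count of the tool. Klrd1 entered the test only through its WT libraries. The call was lost with libraries of 1 code summed (adjusted p = 0.130) and without any single KO library (0.0781 to 0.0986).

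Klre1, a receptor of NK cells that forms dimers with other members of the cluster, had 20, 20 and 21 reads in WT and 1, 0 and 3 in KO. The WT libraries were close to each other and all were far above the KO libraries. Means were 1.32 ± 0.149 and 0.0833 ± 0.0945 CPM, and the ratio of the summed reads, scaled for depth, was 16.6 (95% counting interval 6.18 to 63.1, counting error only). The log2 fold change was -3.91 (SE 0.90, adjusted p = 0.0348). Klre1 also passed the filter on low counts through WT alone, and without that filter its adjusted p was 0.0634. The call was also lost without WT1 (0.0645), without WT2 (0.0567), with libraries of 1 code summed (0.130) and without any single KO library (0.0976 to 0.174). The log2 fold change was -5.14 without KO3 and -3.31 without KO2.

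Klrk1 had 58, 109 and 162 reads in WT and 11, 0 and 23 in KO. Its WT libraries were spread over a 3.22-fold range, and the lowest of them was still 2.34-fold above the highest KO library. Means were 7.27 ± 3.72 and 0.710 ± 0.713 CPM, with a log2 fold change of -3.36 (SE 0.99) that missed the threshold in edgeR (adjusted p = 0.0647) and passed it in DESeq2 (adjusted p = 0.0037). It was -4.39 without KO3 (adjusted p = 0.116) and -2.75 without KO2 (adjusted p = 0.122). All 3 WT libraries but only 2 KO libraries reached the cutoff of the filter on low counts, so Klrk1 entered the test through WT. Without that filter its adjusted p in edgeR was 0.0820.

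Klrg1 was the abundant receptor, with 1501, 1181 and 1632 reads in WT and 1106, 1241 and 1255 in KO. Its groups did not overlap in CPM, although the lowest WT library was only 1.08-fold above the highest KO library. Means were 92.8 ± 13.3 and 71.2 ± 6.38 CPM. The log2 fold change of -0.38 (SE 0.15) missed the threshold (adjusted p = 0.124) and was -0.17 once transcript length and GC were corrected for. Its fitted change was smaller than those of the NK complex receptors, a difference that was not tested.

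Of the granule proteases, Gzma had 97, 104 and 146 reads in WT and 15, 40 and 48 in KO. Every WT library was above every KO library, the closest pair being 1.87-fold apart. Means were 7.55 ± 2.05 and 2.01 ± 1.01 CPM, with a log2 fold change of -1.90 (SE 0.46, adjusted p = 0.0391). This call sat at the threshold, with adjusted p = 0.0505 without the filter, 0.0554 with the length and GC correction and 0.0509 to 0.0540 without each WT library in turn in edgeR. It was lost without any single KO library (0.0950 to 0.154) and with libraries of 1 code summed (0.142).

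Gzmb had 202, 92 and 384 reads in WT and 86, 82 and 79 in KO. The KO libraries were alike, whereas the WT libraries covered a 3.89-fold range, and WT2 was only 1.19-fold above the highest KO library. Means were 14.5 ± 9.77 and 4.90 ± 0.597 CPM. The log2 fold change of -1.57 (SE 0.47) missed the threshold in edgeR (adjusted p = 0.0672) and passed it in DESeq2 (adjusted p = 0.0107). It was -0.89 without WT3 (adjusted p = 0.0901) and -1.92 without WT2 (adjusted p = 0.0236).

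Prf1 had 16, 24 and 90 reads in WT and 6, 18 and 0 in KO. WT3 held most of the WT reads, and the groups overlapped in CPM, with WT1 (0.920) below KO2 (0.945). Means were 2.86 ± 2.71 and 0.443 ± 0.475 CPM, and the log2 fold change of -2.65 (SE 1.13, adjusted p = 0.153) was -1.52 without WT3 (adjusted p = 0.403). Without KO2 it was -3.84 (adjusted p = 0.202). The WT libraries covered a 6.48-fold range, and Prf1 passed the threshold in neither edgeR nor DESeq2 (adjusted p = 0.0739). All 3 WT libraries but only 1 KO library reached the cutoff of the filter on low counts, so Prf1 also entered the test through WT. Without that filter its adjusted p in edgeR was 0.189.

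**Figure D2:**
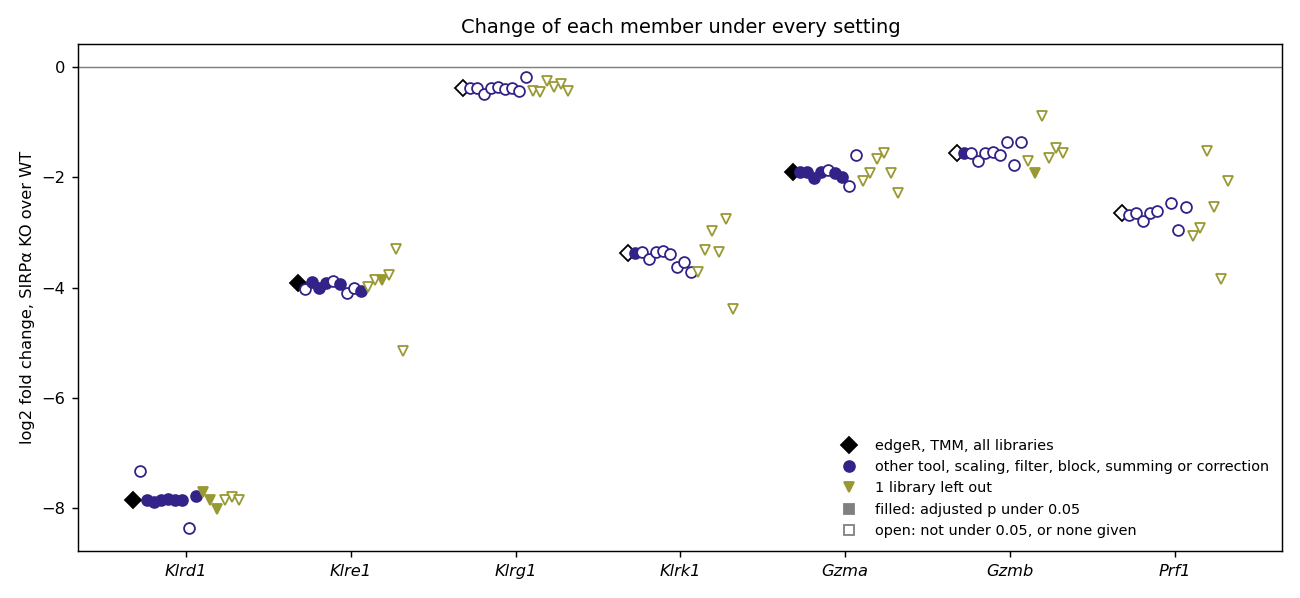
Log2 fold change (y axis, SIRPα KO over WT) of each gene in edgeR with all libraries (diamonds), under other tools, scalings, filters or corrections (circles) and with 1 library left out (triangles). Filled symbols have an adjusted p under 0.05. All fits reuse the same libraries. Every symbol lies below 0, and those of Klrd1 depend on the prior count of the tool because its KO libraries hold no reads.

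Other receptor genes around Klrd1 on chromosome 6 mostly had fewer reads in SIRPα KO. Of 29 other lectin-like receptor genes listed for the complex, 16 were in the table, and 15 of these had fewer reads in KO than in WT. The share of all genes with fewer reads in KO was not counted, and some of the 15 had few reads in either group. Tested genes under a log2 CPM of 3 had a median log2 fold change of -0.25. Of the 16, 7 were tested and 3 fell, namely Klrb1b, Klrb1c and Klrc1, with none higher and a median log2 fold change of -1.30. Over all genes tested 5.81% fell past the threshold. Klrc1 (NKG2A), the inhibitory partner of CD94, had 58, 70 and 61 reads in WT and 9, 8 and 12 in KO, a log2 fold change of -2.82 (SE 0.46, adjusted p = 0.0155). The near-identical sequence of Klrc2 means that reads may be split between Klrc1 and Klrc2. Klrb1c, which encodes the NK1.1 antigen, had 43, 68 and 72 reads against 0, 0 and 6 (log2 fold change -4.97, SE 1.09, adjusted p = 0.0300), and Klrb1b, an inhibitory receptor, had 79, 89 and 72 against 22, 41 and 31 (-1.51, SE 0.36, adjusted p = 0.0388). Exons of Klrb1b and Klrb1c overlap those of Gm44511, so part of their reads cannot be assigned. Klrc1 and Klrb1c passed the filter on low counts through their WT libraries. Without that filter their adjusted p values were 0.0193 and 0.0409. A further 5 genes, Klrc2, Klri2, Klra4, Klra7 and Klra1, had 0 reads in every KO library, but only 10 to 40 reads over the 3 WT libraries and were not tested. Klrc2, an activating partner of CD94, had 0, 4 and 14 WT reads.

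Cd69 and Clec2i, of the same region, did not pass the test with all libraries. Cd69, an early activation marker, was at 36.2 ± 10.6 CPM in WT and 25.7 ± 1.96 CPM in KO (log2 fold change -0.50, adjusted p = 0.189). It passed with the length and GC correction (-0.97, adjusted p = 0.0141) and without WT3 (-0.71, adjusted p = 0.0182). Clec2i had 111, 153 and 88 reads in WT and 138, 149 and 137 in KO (0.12, adjusted p = 0.804), and it was the gene of the 16 with more reads in KO. Both genes were picked after their values were seen.

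**Figure D3:**
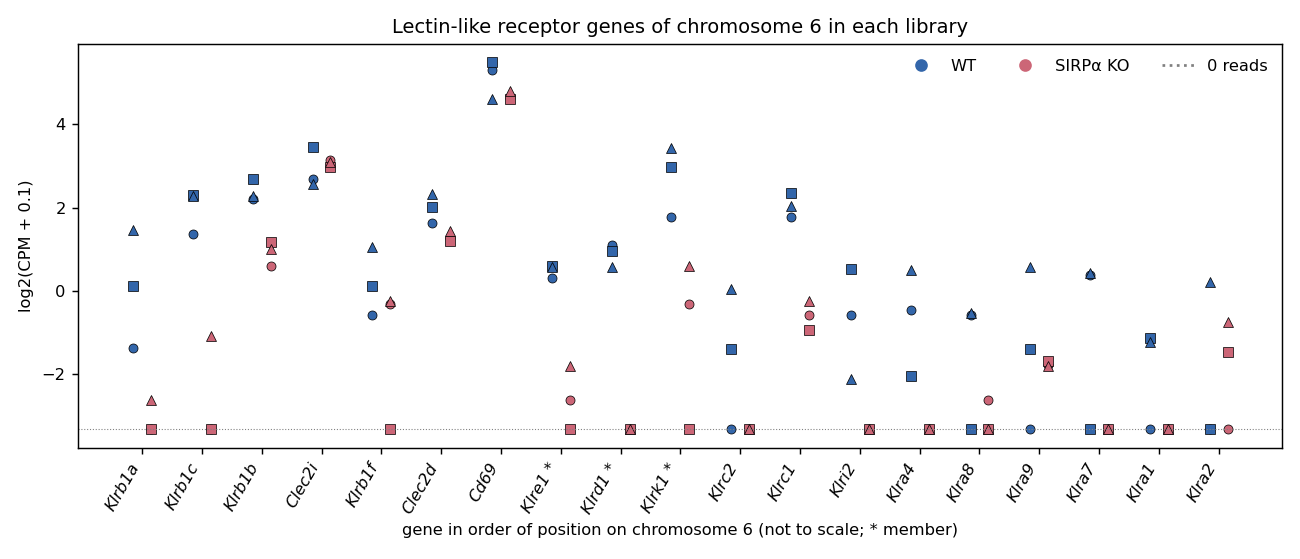
Log2(CPM + 0.1) (y axis) of the lectin-like receptor genes of chromosome 6 in the table, in genomic order from left to right, with asterisks on Klre1, Klrd1 and Klrk1. Blue points are the 3 WT and red points the 3 SIRPα KO libraries, and the dotted line marks 0 reads. Every KO point lies on the dotted line at Klrd1, Klrc2, Klri2, Klra4, Klra7 and Klra1, whereas Cd69 and Clec2i overlap between the groups.

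Adaptors and signalling proteins downstream of these receptors changed in part. Of 14 tested, 4 fell (Hcst, Cd247, Zap70 and Lat), none rose and 10 did not pass, with a median log2 fold change of -0.49. The share of all genes tested that fell was 5.81%. Hcst, the DAP10 adaptor of NKG2D, had 359, 271 and 453 reads in WT and 191, 204 and 159 in KO, a log2 fold change of -1.09 (SE 0.23, adjusted p = 0.0283) that shrank to -0.19 with the length and GC correction (adjusted p = 0.569). Lat, the scaffold of T cell receptor signalling, was at 73.6 ± 7.24 CPM in WT and 34.5 ± 2.21 CPM in KO (log2 fold change -1.09, adjusted p = 0.0101). Cd247, the CD3ζ chain, had a log2 fold change of -0.88 (adjusted p = 0.0489), and the kinase Zap70, which binds it, one of -0.75 (adjusted p = 0.0157), or -0.44 with the length and GC correction (adjusted p = 0.0516). Tyrobp, the DAP12 adaptor, had 157, 70 and 256 reads in WT and 81, 104 and 103 in KO, and its groups overlapped (-0.86, SE 0.43, adjusted p = 0.205). Among 4 tested ligands of NKG2D, CD94 and KLRG1 none passed, with a median of -0.20.

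The remaining granule proteins did not follow the granzymes as a group. Nkg7, a granule membrane protein of NK and cytotoxic T cells, was the only 1 of 7 tested to pass, with 96, 46 and 110 reads in WT and 6, 14 and 6 in KO (log2 fold change -3.40, SE 0.52, adjusted p = 0.0143). Nkg7 passed the filter on low counts through its WT libraries, and without that filter its adjusted p was 0.0175. Ctsc, the protease that activates granzymes, was at 81.5 ± 23.9 CPM in WT and 97.7 ± 4.08 CPM in KO (0.26, adjusted p = 0.406). Srgn, the proteoglycan that packs granules in many leukocytes, was at 1119 ± 239 and 883 ± 35.5 CPM (-0.34, adjusted p = 0.166). The median of these 7 was -0.04. In the granule release machinery, 2 of 9 fell, the SNARE protein Vamp8 (-0.89, adjusted p = 0.0193) and the actin regulator Coro1a (-0.67, adjusted p = 0.0129), and none rose. Among all genes tested 5.81% fell. None of 6 granzyme inhibitors passed, with a median of 0.44. Serpinb9, which inhibits granzyme B, had 544, 416 and 427 reads in WT and 837, 887 and 611 in KO, without overlap (0.63, SE 0.17, adjusted p = 0.0527).

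Transcription factors that direct cytotoxic programs changed in both directions. Of 15 tested, 3 fell, 1 rose and 11 did not pass, beside 5.81% of all genes tested that fell and 11.7% that passed in either direction. Eomes, a T-box factor that defines NK cells, had 70, 41 and 51 reads in WT and 5, 0 and 0 in KO (log2 fold change -4.98, SE 1.07, adjusted p = 0.0286). Eomes passed the filter on low counts through WT alone, and without that filter its adjusted p was 0.0397. Id2, needed by all innate lymphoid cells, fell from 1269 ± 137 to 811 ± 34.8 CPM (-0.65, adjusted p = 0.0154), and Bhlhe40 by 0.55 on the log2 scale (adjusted p = 0.0334). Prdm1, the repressor Blimp-1, rose from 18.2 ± 4.74 to 40.1 ± 4.40 CPM (1.14, SE 0.23, adjusted p = 0.0252). Tbx21 (T-bet) had 85, 6 and 1 reads in WT and 2, 6 and 6 in KO, most of them in WT1, and was not tested. Gata3, the defining factor of ILC2s, was at 946 ± 119 CPM in WT and 1012 ± 32.8 CPM in KO (0.10, adjusted p = 0.566). Runx3, looked up after the promoter search, was at 65.5 ± 11.3 and 50.02 ± 6.33 CPM (-0.39, adjusted p = 0.168). In all, 14 of 62 tested genes in these pathway lists passed, beside 11.7% of all genes tested. No gene of these lists passed when any 1 of the KO libraries was left out, and over all genes only 16 or 17 passed then.

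Some markers of other lymphocytes were also lower in SIRPα KO. The counts below stand beside 5.81% of all genes tested that fell past the threshold. NK cell and group 1 ILC markers, of which 13 of 14 were in the table, summed to 34.3 to 59.7 CPM in WT and 10.9 to 15.5 CPM in KO. Of 8 tested, 4 fell (Eomes, Klrb1c, Nkg7 and Ccl5), none rose, and Klra4 was at 0 in every KO library. Of these only Ccl5 is new, because Eomes, Klrb1c, Nkg7 and Klra4 were already counted in the pathway lists above. The sort had excluded cells with CD335, the product of Ncr1, which had 16, 10 and 23 reads in WT and 1, 13 and 5 in KO (-1.53, SE 0.81, adjusted p = 0.228). T cell markers summed to 206 to 274 CPM in WT and 123 to 132 CPM in KO, with 3 of 4 tested lower. Most of this sum came from Trbc2 and Trbc1 (means of 149 and 58.5 CPM in WT), which are near-identical copies of each other. Cd3g also fell (log2 fold change -2.45), whereas Cd3e did not pass (-0.33, adjusted p = 0.780). Cd3d, Trac, Cd4 and Cd5 had few reads and were not tested. B cell markers summed to 216 to 479 CPM in WT and 23.1 to 84.6 CPM in KO, with 5 of 6 lower and none at 0 in every KO library. Most of the WT sum came from Ighm and Igkc (means of 219 and 137 CPM). T and B cells had also been gated out, as had cells with CD11b (the product of Itgam), CD11c (of Itgax), Gr1 or FcεRIα. Macrophage and dendritic cell markers, all 8 of them in the table, summed to 46.4 to 130 CPM in WT and 85.2 to 129 CPM in KO. Their median change was 0.73 on the log2 scale, and 1 of 7 tested passed, Itgam, which rose (2.55, adjusted p = 0.0454). The share of these cell types in the values of the 7 genes was not tested, and fewer cells of a type and less RNA per cell cannot be told apart in bulk libraries.

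Within the groups the markers did not all peak in the same library. WT3 was highest in 5 of the 7 genes, Klrk1, Klrg1, Gzma, Gzmb and Prf1, and also in the summed NK and group 1 ILC markers (59.7 CPM against 37.0 and 34.3), in the mast cell and basophil markers (67.4 against 27.3 and 27.7) and in the macrophage and dendritic cell markers (130 against 48.1 and 46.4). None of the 5 tested mast cell and basophil markers passed. B cell markers were lowest in WT3 (216 against 479 and 475). In KO the mast cell and basophil markers stood at 54.1 CPM in KO1 and at 4.20 and 4.16 in KO2 and KO3, while Gzma was lowest in KO1. In these marker sums WT1 lay close to WT2, and KO2 close to KO3, the libraries whose codes differ only by a suffix. Single genes could differ within such a pair, as Gzmb did (11.6 CPM in WT1 and 6.54 in WT2). Whether the pairs are repeat libraries was not tested.

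**Figure D4:**
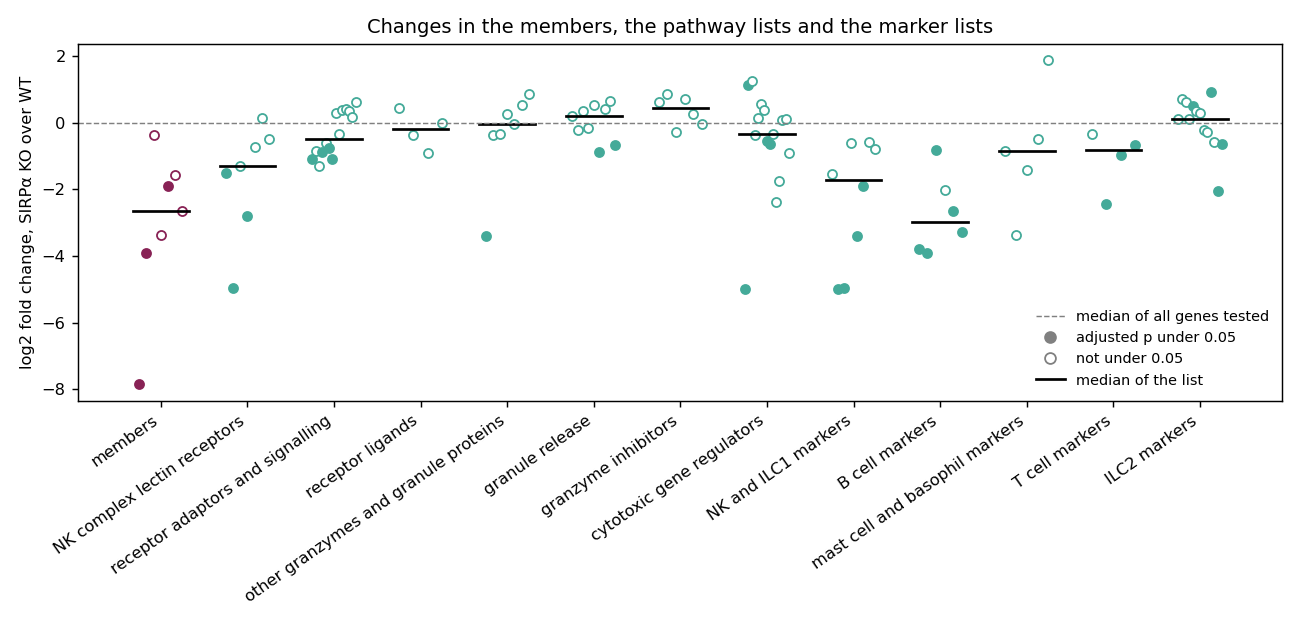
Log2 fold change (y axis, SIRPα KO over WT) of the tested genes of each list, with the 7 genes at the left. Some lists share genes. Each point is a gene, filled where its adjusted p is under 0.05, black lines are list medians and the dashed line is the median of all 13623 genes. The 7 genes, the other NK complex receptors and the NK and B cell markers lie mostly below the dashed line, and the granzyme inhibitors and ILC2 markers spread around it.

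Only Klrg1 and Gzmb had at least 50 reads in every library, so the genes most like them in log2 CPM over the 6 libraries were listed as a description. For Klrg1 these were Rala (r = 0.997), Cyth2 (0.995) and Ndufb3 (0.993), and 1170 genes had r over 0.9. For Gzmb they were Gm7204, Ndufa12 and U2af1l4, with r of at least 0.998, and 1233 genes had r over 0.9. The libraries share depth and genotype across all genes, and r over 6 points is high for many of them.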

How the data were processed

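Bulk RNAseq was performed on cultured lung ILC2s, in 3 WT and 3 SIRPα KO libraries prepared with the SMARTer Ultra Low Input kit. The authors aligned reads with STAR in Partek (STAR 2.7.8 and Partek 10.0 in the submitters' processing notes) to mm10 with GENCODE M21 and deposited estimated counts for each gene. The treatment of overlapping genes and of strand is not given in the sources used here. The table holds 17831 genes, none with a total under 10. Of its gene columns 132 are recorded by name, and 17699 hold the same unit and are not listed singly.

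Counts were rounded. Genes were kept by filterByExpr (minimum count 10, minimum total 15). TMM factors were applied, and genotype was tested with edgeR 4.0.16 (R 4.3.3, limma 3.58.1), with 3 libraries in each group. The threshold was an adjusted p of 0.05 over 13623 genes. SE was derived from the F statistic. An exact permutation test of 3 against 3 libraries cannot give a p below 0.1. The code was tested on simulated data.

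The 7 genes and all lists were chosen with earlier results of these data known. Named genes were the 7, up to 6 genes past the threshold of each pathway list by size of change, and direct partners whatever their values, besides the genes most like each member with at least 50 reads in every library. Cd69, Clec2i, Runx3 and the markers named with values fall outside this rule and were added after their values were seen. Positions came from GENCODE M21 and promoters from RefSeq (GRCm38.p6). Alternatives were DESeq2 1.42.0, other scalings and filters, the replicate block, summing libraries of 1 code, a length and GC offset (spline with 5 degrees of freedom) and leaving out each library. Intervals and floors cover counting error only.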

Additional observations from a re-analysis of the deposited data

How the results depend on the processing

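All 102 refits of the 7 genes with an adjusted p kept the lower direction, 21 of them losing the call and 3 gaining it. The refits reuse the same libraries, so their shared direction is no further evidence. In edgeR 3 of the 7 passed, and the count was 1 without the filter, 0 with libraries of 1 code summed, and 0 to 2 with 1 library left out (0 without any single KO library, 1 without WT1, 2 without WT2 or WT3). Summing leaves 2 against 2 libraries. DESeq2 called Klrk1, Gzma and Gzmb and gave no adjusted p for Klrd1 and Klre1. In the pathway lists 14 genes passed, 26 in DESeq2, 0 with summed libraries and 0 to 20 with 1 library left out. Over all genes 1600 passed, 3084 in DESeq2 (1672 higher), 10 with summed libraries and 16 to 2606 with 1 library left out (16, 17 and 17 without KO1, KO2 and KO3, and 2606 without WT3). Without WT3 the WT group is only WT1 and WT2, and without KO1 the KO group is only KO2 and KO3. These are the pairs whose codes differ only by a suffix. At an unadjusted p under 0.05, edgeR had 7 of the 7 genes, beside 4355 of all 13623 genes tested. With summed libraries it had 6 of the 7, beside 3359 of 14581 genes. Upper quartile scaling moved the median of all genes to -0.13 (log2) and the other scalings to no more than -0.03. With the replicate block 2 of the 7 passed (Klre1 at an adjusted p of 0.0639 did not), 12 genes of the pathway lists and 1118 of all genes. Deviations of same-numbered libraries from their group means had correlations of -0.14, 0.18 and 0.03. WT2 matched best with KO2, and WT1 and WT3 matched best with KO3. So few values cannot show whether the numbers pair the samples. Prf1 could not be fitted with a filter of at least 1 CPM in 3 libraries. At the lowest levels 1 library carried much of a value, as WT3 did for Prf1, and the KO reads of Klrd1 and Klre1 were at or near 0.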
